A study of Mus musculus with 4 samples.

Results

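Diaphragm was compared with quadriceps in mdx5cv/Ccr2-/- mice, which carry a dystrophin mutation that gives a muscular dystrophy (mdx5cv) and also lack Ccr2, the chemokine receptor that inflammatory monocytes use to leave the bone marrow and enter tissue. The cells were the mononuclear cells of each muscle, profiled by droplet single-cell RNA sequencing of 3′ transcript ends, in which each captured transcript is counted once by its unique molecular identifier (UMI). The comparison took every barcode of these 2 libraries that carried 500 UMIs and 300 genes or more, of which mitochondrial genes made up no more than 15% of UMIs. This gave 6811 barcodes from quadriceps and 6446 from diaphragm, 13257 of the 31077 that met the same limits in the 4 libraries of the series. The other 2 libraries came from quadriceps and diaphragm of mdx5cv mice with Ccr2 intact, and their values are given beside. All mice were 14 weeks old, every group carried mdx5cv, and the labels used here do not say how many mice stood behind a library. Every group was 1 library, so the differences have no replicate check, the intervals (exact, 95%) cover counting error only, and no difference between the genotypes was tested.

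The diaphragm is the respiratory muscle that contracts throughout life, and in dystrophin-deficient mice it is known for the heaviest fibrosis, while limb muscles such as the quadriceps regenerate better. Fibro-adipogenic progenitors (FAPs) are the muscle's matrix-making stromal cells, macrophages clear dying fibres, and muscle stem cells rebuild them. Limb muscle comes from somites at the level of the limb bud and diaphragm muscle from cervical somites, and adult connective tissue keeps a record of its position in the Hox transcription factor genes: low-numbered paralogues mark anterior levels and high-numbered ones posterior levels.

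The deposited matrices held 66330555 UMIs for quadriceps and 67356144 for diaphragm. After 449 and 397 predicted doublets were removed, 6362 quadriceps and 6049 diaphragm cells remained, with median depths of 6652 and 8962 UMIs. The 2 libraries shared 7 cell barcodes. Ccr2 stood at 15.5 counts per 1000000 UMIs (CPM) over all quadriceps cells and 8.55 CPM over all diaphragm cells, against 253 and 137 CPM in the mdx5cv libraries; the deleted part of the gene is not given in the sources used here, so this is a check of the label only as far as a 3′ count can be. Cell classes were named from marker sets on clusters of all 4 libraries. The 9 FAP markers summed to 54482 CPM in quadriceps FAPs and 62603 CPM in diaphragm FAPs, and the 10 macrophage markers to 17209 and 17197 CPM in macrophage-like cells, against 28.6 and 33.3 CPM in FAPs.

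The 2 muscles differed in their balance of stroma and vessel wall. In what follows, where a pair of values is given the quadriceps value stands first. FAP/fibroblast-like cells were 21.2% of quadriceps cells and 54.0% of diaphragm cells, a ratio of shares of 2.54 (2.39 to 2.71), and the ratio was 2.67 in mdx5cv mice. Endothelial-like cells went the other way, 37.1% of quadriceps cells and 13.1% of diaphragm cells, a ratio of 0.353 (0.325 to 0.383), against 0.227 in mdx5cv mice. Pericyte-like cells, which wrap capillaries, were 3.96% and 0.628% of cells, a ratio of 0.159. Pericyte-like and smooth muscle-like cells together had a ratio of 0.240 (0.186 to 0.307). Lymphatic endothelial-like cells were an exception among vessel cells, with 0.471% in quadriceps and 1.82% in diaphragm, a ratio of 3.86 (2.56 to 5.98). Shares sum to the whole, so a larger FAP share lowers all others; how many cells of each type the tissue held, or how well each type came free of it, was not measured.

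Among blood-derived and myogenic cells, most classes held a smaller share of the diaphragm library. Macrophage-like cells were 9.02% of quadriceps and 6.70% of diaphragm cells, a ratio of 0.742 (0.652 to 0.844), against 1.07 (0.972 to 1.18) in mdx5cv mice. A further myeloid cluster, left unnamed because macrophage and classical monocyte genes both led it, was 5.25% and 0.909%, and with it added the ratio was 0.533 (0.475 to 0.597), against 0.565 in mdx5cv mice. All immune cells together were 22.1% and 15.2% of cells, a ratio of 0.690 (0.634 to 0.750). T cells, natural killer cells and innate lymphoid cells together ran against that, with 2.34% and 3.59% of cells, a ratio of 1.53 (1.24 to 1.90). Neutrophil-like cells were 1.24% and 0.314%. Muscle stem cell-like cells were 4.73% of quadriceps and 2.13% of diaphragm cells, a ratio of 0.451 (0.364 to 0.556), against 0.832 in mdx5cv mice. Tenocyte-like cells, which make tendon matrix, were 6.11% and 10.7%, but this ratio of 1.74 turned to between 0.548 and 0.711 under 5 other clusterings or filters. With the 2 libraries clustered alone, 361 quadriceps and 188 diaphragm cells were tenocyte-like, against 389 and 645 here. The class that the cells of tenocyte-like cluster 7 (150 quadriceps and 609 diaphragm cells) took in those settings was not followed. FAP/fibroblast-like cells, tenocyte-like cells and 1 unnamed fibroblast cluster, counted as 1 group, did not depend on the border between these classes. They were 27.4% and 65.7% of cells, a ratio of 2.40 (2.27 to 2.54).

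**Figure D1:**
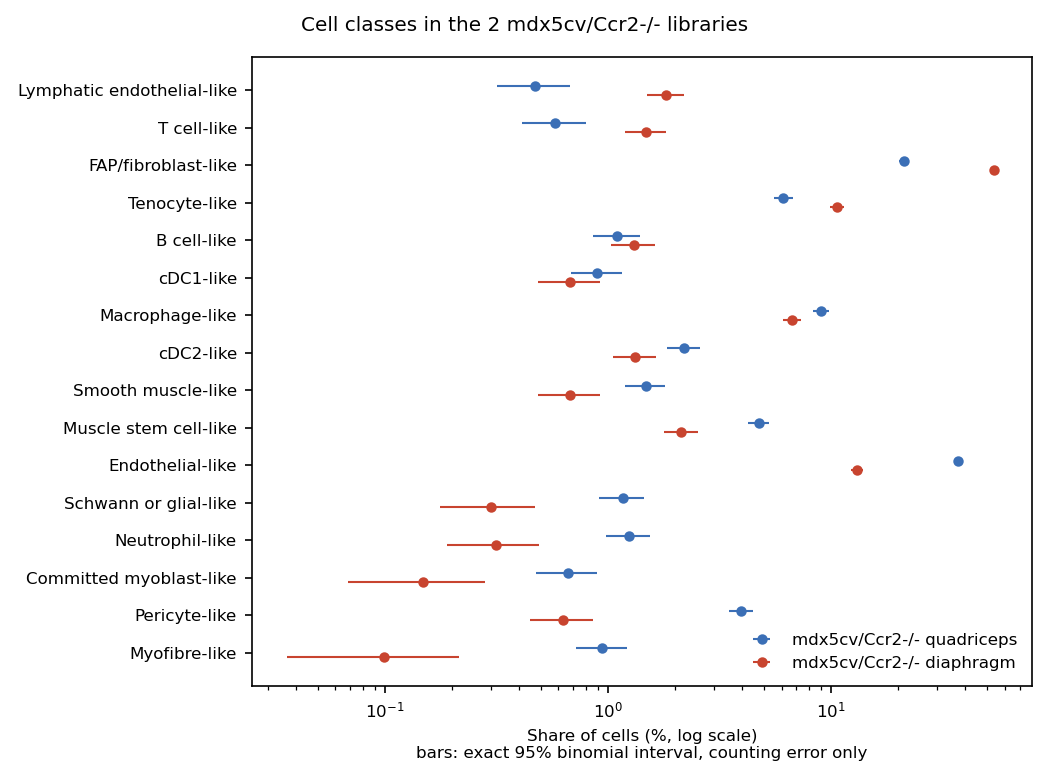
Share of cells (%, log scale) of 16 classes in the mdx5cv/Ccr2-/- quadriceps (blue) and diaphragm (red) libraries, with exact 95% binomial intervals. FAP/fibroblast-like cells stand at 21.2% in quadriceps and 54.0% in diaphragm, endothelial-like cells at 37.1% and 13.1%.

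FAPs of the 2 muscles came from largely different clusters. In quadriceps, 910 FAPs lay in cluster 3, led by the activated-stroma genes Ptn, Cthrc1, Postn and Tnc, and that cluster held 386 diaphragm FAPs. In diaphragm, 1227 FAPs lay in cluster 0, led by C7, Inmt, Col6a5 and Sfrp1, and 840 in cluster 1, led by Htra3, Hsd11b1, Col15a1 and Smoc2; these clusters held 21 and 94 quadriceps FAPs. The level of a gene over all FAPs therefore mixes cluster make-up with level within a cluster, and values within clusters are given below for several of the genes and lists described.

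A gene was counted as different when its log2 ratio of CPM, after adding 5 CPM to each side, was at least 1 in size. Of 5840 genes measured in FAPs, 175 (3%) were higher in diaphragm by that rule and 108 (1.85%) in quadriceps. Of the 175, 170 were also higher in the diaphragm of mdx5cv mice, and of the 108, 103 were also higher in mdx5cv quadriceps. Over all 5840 genes, 1333 ran in opposite directions in the 2 genotypes. By the same rule 2.43% and 1.85% of genes passed in the mdx5cv pair.

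The gene that stood highest in diaphragm FAPs was Col6a5, a chain of the microfibrillar collagen VI (chromosome 9, 105856078 to 105960643, minus strand, GRCm38). It stood at 12.6 CPM in quadriceps FAPs and 526 CPM in diaphragm FAPs, a ratio of 41.8 (37.1 to 47.4). Ptgis, the prostacyclin synthase, had 7.27 and 182 CPM, a ratio of 25.0. Both differences held within clusters: in cluster 3 Col6a5 had 7.58 and 220 CPM and Ptgis 6.81 and 225 CPM. At an equal depth of 2000 UMIs a cell, 2.09% of quadriceps FAPs and 39.8% of diaphragm FAPs had a Col6a5 UMI, against 0% and 1.02% of macrophage-like cells. Inmt, a methyltransferase for small amines, had 17.7 and 250 CPM, a ratio of 14.2 that was 4.36 inside cluster 3 and 1.92 inside cluster 5. The terminal complement component C7 had 25.8 and 325 CPM, a ratio of 12.6, and 2.28 inside cluster 5. Pi16, a marker of the fibroblasts that line vessels and fascia, had 96.3 and 866 CPM, a ratio of 8.99, and stood between 3.98 and 9.01 in the 3 clusters with at least 100 cells in both libraries (3, 5 and 11).

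Quadriceps FAPs stood apart by Ptn, Hoxc10, S100a4, Ecrg4, Shox2 and Emb. Ptn, a heparin-binding growth factor (chromosome 6, 36714929 to 36810220, minus strand), had 1236 CPM in quadriceps FAPs and 11.5 CPM in diaphragm FAPs, 107-fold higher in quadriceps (97.4 to 118). The mdx5cv pair had 162 and 20.5 CPM, the same direction with a smaller gap. Within cluster 3 Ptn had 1524 and 48.8 CPM, within cluster 5 73.6 and 1.67 CPM, and within cluster 11 48.3 and 1.33 CPM, so the quadriceps level was higher in each. A Ptn UMI was present in 47.1% of quadriceps FAPs and 0.914% of diaphragm FAPs at 2000 UMIs a cell. S100a4, a calcium-binding protein also called fibroblast-specific protein, had 516 and 32.9 CPM, 15.7-fold higher in quadriceps, and the mdx5cv pair had 683 and 37.0 CPM. S100a4 kept its direction in clusters 3, 5 and 11, with 542 against 58.4, 352 against 30.7 and 636 against 54.5 CPM. Ecrg4, which encodes a secreted peptide precursor, had 361 and 22.5 CPM. Within cluster 3 it was 437 and 61.2 CPM, but in cluster 11 it was 20.2 and 11.5 CPM, a diaphragm-to-quadriceps ratio of 0.571 whose interval (0.322 to 1.01) reaches 1. Emb, a chaperone of lactate transporters, had 86.5 and 6.42 CPM.

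**Figure D2:**
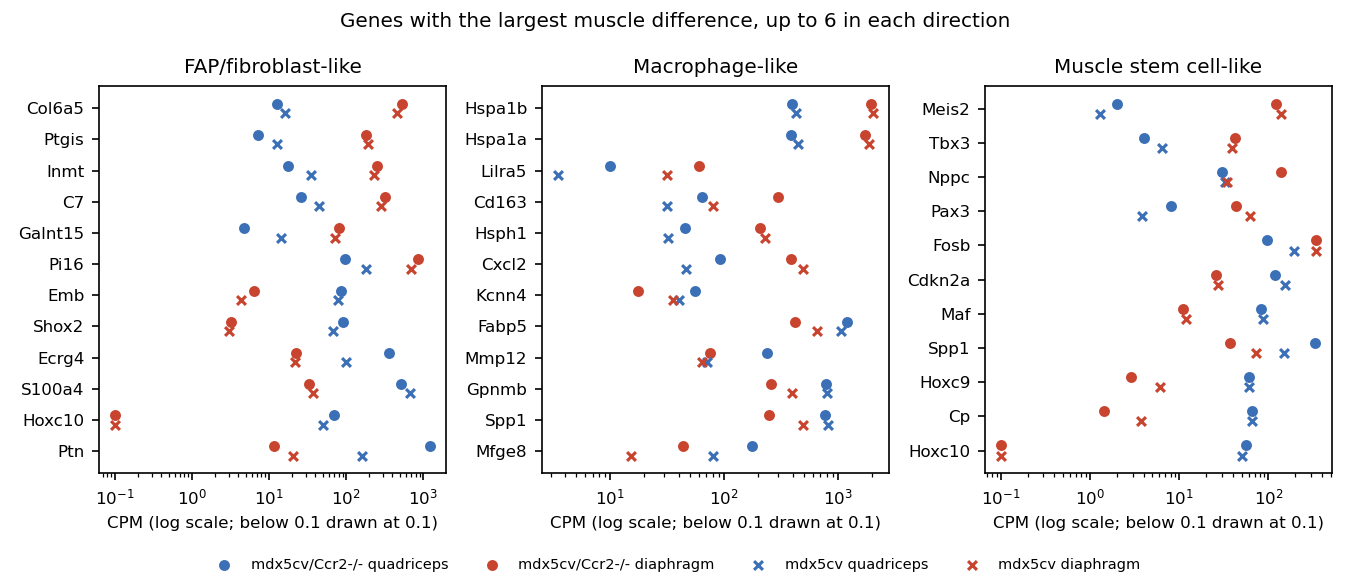
Level (CPM, log scale) of up to 6 genes that stood highest in each muscle by log2 ratio, in FAP/fibroblast-like, macrophage-like and muscle stem cell-like cells; circles are mdx5cv/Ccr2-/- and crosses mdx5cv, blue quadriceps and red diaphragm, and levels at or near 0 are drawn at the left edge. Col6a5 in FAPs runs from 12.6 to 526 CPM and Ptn from 1236 to 11.5 CPM between quadriceps and diaphragm of mdx5cv/Ccr2-/- mice, and for Nppc and Mmp12 the crosses nearly coincide.

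Over all FAPs, the collagen chain and activated-state lists had medians on the quadriceps side. Of 23 measured collagen chains, 4 were at least 2-fold higher in diaphragm and 5 in quadriceps, with a median log2 ratio of -0.68 (-0.22 in mdx5cv mice); the median of all measured genes lay between -0.04 and 0.01 in the 5 classes described. Inside cluster 3 the collagen median was -0.04, with 4 chains at least 2-fold higher in diaphragm and 2 in quadriceps, and inside clusters 5 and 11 it was -0.46 and -0.31. Col6a6, like Col6a5 a late-branching collagen VI chain, had 59.2 and 241 CPM, 4.07-fold higher in diaphragm. Col18a1, the basement membrane collagen that yields endostatin, had 124 and 17.5 CPM, 7.04-fold higher in quadriceps, and Col12a1, a collagen of stretched tissue, 487 and 118 CPM, 4.13-fold higher in quadriceps. The main fibril collagens were closer: Col1a1 had 12696 and 7591 CPM and Col3a1 17433 and 13351 CPM. Of 12 genes of the activated fibroblast state, 7 were at least 2-fold higher in quadriceps and 0 in diaphragm, a median of -1.07, against -0.15 in mdx5cv mice. Lrrc15, a membrane protein of TGF-beta-activated fibroblasts, had 63.9 and 6.05 CPM, and Cthrc1, a secreted marker of collagen-producing fibroblasts, 440 and 152 CPM. Postn, the matricellular protein periostin, had 5702 and 2241 CPM. Within clusters 3, 5 and 11 the list's medians were 0.08, 0.30 and -0.03, and in cluster 3 Postn had 6836 and 6874 CPM and Cthrc1 534 and 594 CPM. Lrrc15 was an exception, with 77.3 and 24.9 CPM in cluster 3, 10.0 and 3.17 CPM in cluster 5 and 9 UMIs and 1 UMI in cluster 11. Of 12 measured genes of the imprinted growth network, which tune fetal and regenerative growth, 4 were at least 2-fold higher in quadriceps and 0 in diaphragm; Mest, a hydrolase-like member, had 392 and 65.4 CPM, and the H19 RNA 402 and 80.2 CPM. The list's median was -0.75, against 0.14 in mdx5cv mice, and -0.24, 0.23 and -0.10 within clusters 3, 5 and 11. H19 had 495 and 291 CPM in cluster 3, but diaphragm-to-quadriceps ratios of 1.13 (0.866 to 1.48) in cluster 5 and 1.79 (1.20 to 2.73) in cluster 11. Of 9 measured cell cycle genes, 5 were at least 2-fold higher in quadriceps, with Mki67 at 49.6 and 3.84 CPM.

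Over all FAPs, the lists of resting-state, complement and TGF-beta signalling genes had medians on the diaphragm side. Of 14 genes of the resting interstitial state, 6 were at least 2-fold higher in diaphragm and 1 in quadriceps, a median of 0.86 (0.28 in mdx5cv mice); in clusters 3, 5 and 11 the medians were 0.32, -0.26 and -0.24. Bmp4, a growth factor of the TGF-beta family, had 19.5 and 101 CPM, and Lpl, which releases fatty acids from lipoproteins, 348 and 936 CPM. The exception was the chemokine Cxcl14, with 908 and 228 CPM. Of 10 measured complement genes, 5 were at least 2-fold higher in diaphragm and 2 in quadriceps, a median of 0.79 (0.20 in mdx5cv mice). Within clusters 3, 5 and 11 the complement median was 0.11, -0.01 and 0.05, with 2 genes past 2-fold in each direction in each. Over all FAPs C3, the central component, had 248 and 986 CPM, 3.98-fold higher in diaphragm (3.87 to 4.10). C2 and Cfb, which each supply a protease of the C3-cleaving complex, went the other way, with 48.0 and 17.5 CPM and 144 and 64.2 CPM. Of 20 genes of TGF-beta signalling, 6 were at least 2-fold higher in diaphragm and 0 in quadriceps, a median of 0.50, and 0.32, 0.04 and 0.30 within clusters 3, 5 and 11. Among them were Ltbp1, which tethers latent TGF-beta to the matrix, with 36.6 and 119 CPM, and the target gene Tgfbi, with 101 and 293 CPM. The target Ccn2, also called CTGF, differed less, with 334 and 430 CPM. Among 46 proteoglycans and glycoproteins the count was 6 in diaphragm and 7 in quadriceps: Dcn, the collagen-binding proteoglycan decorin, had 5303 and 15396 CPM, and Fn1, fibronectin, 3011 and 1126 CPM.

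**Figure D3:**
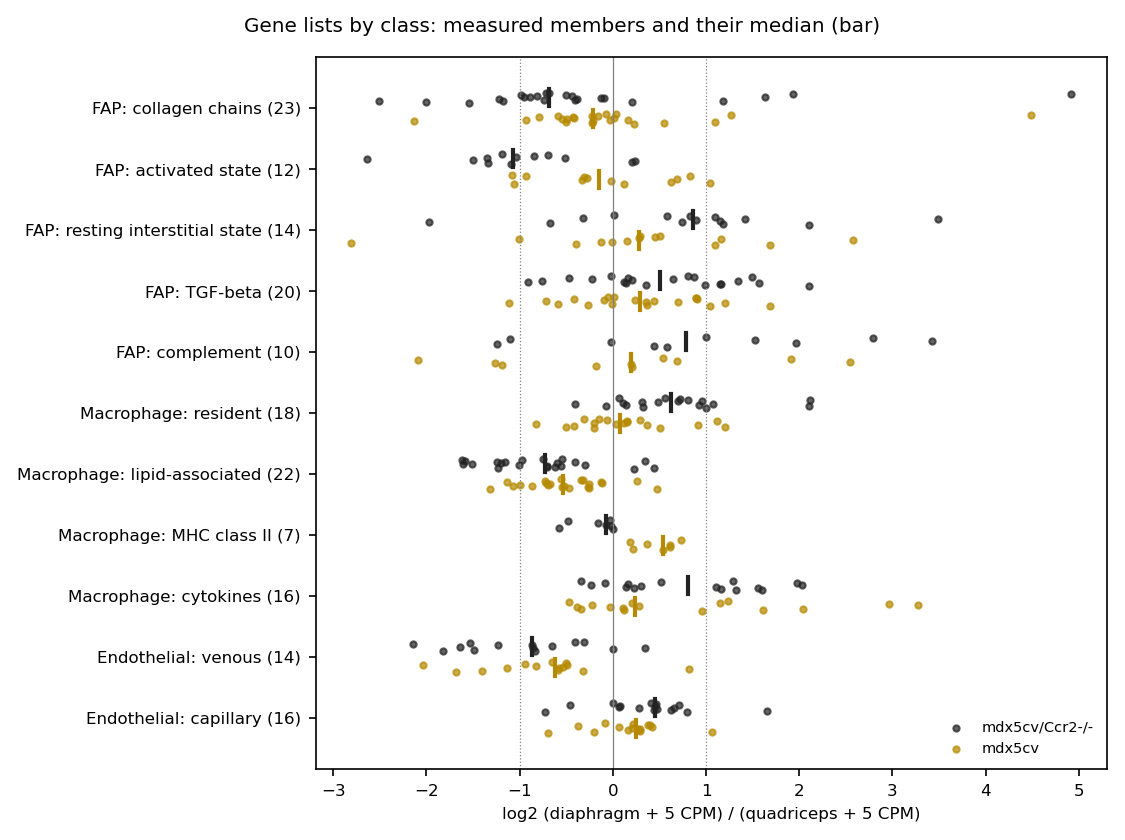
Log2 ratio of diaphragm to quadriceps (5 CPM added to each side) for the measured members of 11 gene lists, 1 point a gene, with the median as a bar; black is mdx5cv/Ccr2-/-, gold is mdx5cv, numbers in brackets are members measured in mdx5cv/Ccr2-/- mice and dotted lines mark 2-fold. The activated fibroblast list has its median at -1.07 in mdx5cv/Ccr2-/- mice and -0.15 in mdx5cv mice, and the lipid-associated macrophage list at -0.73 and -0.53.

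Positional transcription factors gave the sharpest on-off differences between the muscles. Hoxc10 (chromosome 15, 102966796 to 102971893, plus strand) had 1491 UMIs in quadriceps FAPs and 1 in diaphragm FAPs. Hoxa9 had 431 and 1 UMIs, Hoxa10 497 and 1 UMIs, and Hoxc9 35.7 and 0.240 CPM, 149-fold higher in quadriceps (78.0 to 327). Hoxc11, with 57 UMIs against 0, was at least 33.4-fold higher in quadriceps, taking 3 UMIs as the limit for a count of 0. Several anterior paralogues went the other way. Hoxb2 had 6.56 and 38.8 CPM, and Hoxb4 (chromosome 11, 96318267 to 96321638, plus strand) 3.75 and 33.4 CPM, 8.91-fold higher in diaphragm (7.10 to 11.3). Hoxa5 had 3.98 and 23.4 CPM, 5.86-fold higher in diaphragm. Hoxa7, in the middle of its cluster, was the closest of these, with 15.1 and 9.76 CPM. Paralogue number did not sort every Hox gene in FAPs. Hoxc6 had 35.9 and 12.3 CPM, 2.91-fold higher in quadriceps. The higher-numbered Hoxd9, with 38 and 226 UMIs, was 3.38-fold higher in diaphragm, and Hoxb8 had 1 and 51 UMIs.

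Beyond the Hox clusters, quadriceps FAPs held the limb-bud factors. Pitx1, which specifies hindlimb, had 81 UMIs in quadriceps and 1 in diaphragm FAPs, and Tbx4, its hindlimb target, 87 and 5. The quadriceps side was not limited to hindlimb factors: Tbx5, the forelimb relative of Tbx4, had 99 and 42 UMIs, 4.1-fold higher in quadriceps. Tbx15 had 36.3 and 0.666 CPM, 54.5-fold higher in quadriceps, and Shox2, a regulator of proximal limb growth, 91.0 and 3.23 CPM. Diaphragm FAPs held Gata4, which in development acts in the fold that forms the diaphragm's connective tissue (chromosome 14, 63198922 to 63271692, minus strand), with 536 UMIs against 0, at least 102-fold higher. Gata6 had 5.58 and 50.3 CPM, 9.01-fold higher in diaphragm. Prrx1, a general mesenchymal factor, was near equal at 284 and 293 CPM. For the genes of these paragraphs measured in FAPs, the mdx5cv pair showed the same direction, for example 791 and 0 UMIs of Hoxc10 and 0 and 629 UMIs of Gata4.

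Some of these genes differed in direction between cell classes, while others, such as Hoxc10, Hoxa9 and Hoxb2, had 1 direction in FAPs, muscle stem cells and tenocyte-like cells. In endothelial-like cells Hoxb7 had 61.3 and 13.1 CPM, 4.69-fold higher in quadriceps (3.50 to 6.42), while in FAPs it had 1.27 and 7.68 CPM, 6.07-fold higher in diaphragm (4.08 to 9.37). Endothelial Hoxb8 and Hoxb9 were likewise higher in quadriceps, 4.86-fold and 8.95-fold. Shox2 was 28.2-fold higher in quadriceps FAPs but had 1 UMI in quadriceps muscle stem cells and 36 in those of diaphragm, a ratio of 64.4 (10.8 to 2615). Tbx3 also split in this way, at 10.6 and 3.07 CPM in FAPs and 4.06 and 42.2 CPM in muscle stem cells. The mdx5cv pair had each of these directions too. Macrophage-like cells, which are blood-derived or seeded before birth, held few Hox UMIs; Hoxb4 had 36 and 24.

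**Figure D4:**
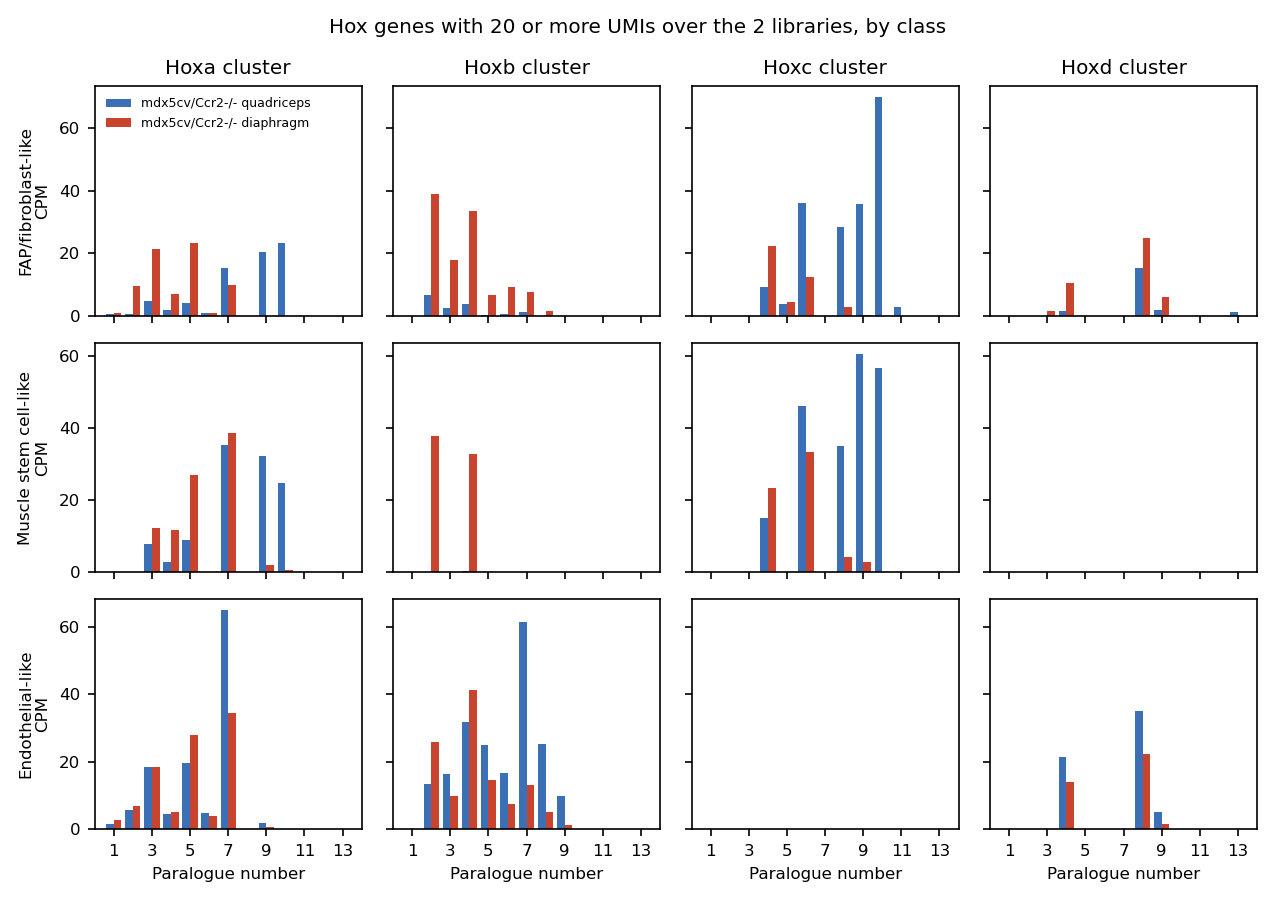
Level (CPM) of Hox genes in the mdx5cv/Ccr2-/- quadriceps (blue) and diaphragm (red) libraries, by gene cluster (columns) and paralogue number (horizontal axis), in FAP/fibroblast-like, muscle stem cell-like and endothelial-like cells (rows); only genes with at least 20 UMIs over both libraries are drawn. Quadriceps bars fill the high numbers of Hoxa and Hoxc in FAPs and stem cells (Hoxc10 at 69.9 CPM in FAPs), diaphragm bars the low numbers of Hoxb, and in endothelial-like cells Hoxb7 is the high blue bar at 61.3 CPM.

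Macrophage-like cells fell into 2 clusters: cluster 4, led by Cx3cr1 and C1q genes, with 372 quadriceps and 167 diaphragm cells, and cluster 9, led by Ccl8, F13a1, Cd163 and Folr2, with 202 and 238. Of 5485 measured genes, 86 (1.57%) were at least 2-fold higher in diaphragm and 32 (0.583%) in quadriceps. At a Leiden resolution of 2 or with the 2 libraries clustered alone, the counts were 131 and 57, and 134 and 53. In mdx5cv mice, 83 of the 86 and 28 of the 32 had the same direction, and 53 and 6 of them were at least 2-fold different in that direction. Over all 5485 genes, 1893 ran in opposite directions in the 2 genotypes. By the same rule 1.61% and 0.288% of genes passed in mdx5cv mice.

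Diaphragm macrophages were higher in Cd163, the scavenger receptor for haemoglobin bound to haptoglobin. Cd163 (chromosome 6, 124304656 to 124330527, plus strand) had 64.6 and 295 CPM, 4.57-fold higher in diaphragm (4.08 to 5.11). The ratio was 2.72 in cluster 4 and 2.64 in cluster 9, and at 2000 UMIs a cell 7.28% and 24.2% of macrophage-like cells had a Cd163 UMI, against 0.155% and 0.252% of FAPs. Mgl2, a galactose-binding lectin, had 37.3 and 178 CPM, and F13a1, the clotting factor XIII subunit, 463 and 983 CPM. Of 18 measured resident macrophage genes, 3 were at least 2-fold higher in diaphragm and 0 in quadriceps. Their median was 0.63 (0.08 in mdx5cv mice), and 0.36 and 0.05 inside clusters 4 and 9. Inside these clusters 2 and 3 genes were past 2-fold in diaphragm, and 1 in each was past 2-fold in quadriceps. Folr2, a member of the list, had 225 and 99.2 CPM in cluster 4 and 667 and 636 CPM in cluster 9. The most abundant, Selenop, a selenium carrier, differed little at 4601 and 4800 CPM. Lilra5, an activating immunoglobulin-like receptor, had 9.88 and 59.8 CPM. Of 16 measured cytokine genes, 8 were at least 2-fold higher in diaphragm and 0 in quadriceps, a median of 0.81 (0.24 in mdx5cv mice). Inside clusters 4 and 9 the medians were 0.82 and 0.25. In cluster 9, 4 genes were past 2-fold in diaphragm and 1 in quadriceps. Over both clusters the neutrophil chemokine Cxcl2 had 92.2 and 391 CPM and Il1b 18.3 and 87.0 CPM. The Ccr2 ligands Ccl2 and Ccl12 had 99.1 and 256 and 122 and 380 CPM. Hmox1, which breaks down haem, had 129 and 288 CPM.

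Quadriceps macrophages were higher in genes of lipid-associated macrophages, the state taken on after engulfing debris. Of 22 measured, 9 were at least 2-fold higher in quadriceps and 0 in diaphragm, a median of -0.73, with -0.59 in cluster 4 and -0.65 in cluster 9. Spp1, the secreted phosphoprotein osteopontin (chromosome 5, 104435118 to 104441050, plus strand), had 775 and 249 CPM, 3.11-fold higher in quadriceps (2.92 to 3.33), and 822 and 494 CPM in the mdx5cv pair. Gpnmb, a lysosomal glycoprotein, had 794 and 257 CPM, Fabp5, a fatty acid carrier, 1193 and 416 CPM, and Mfge8, which bridges dying cells to phagocytes, 174 and 43.9 CPM. Mmp12, the macrophage elastase, had 237 and 75.4 CPM here and 70.7 and 64.2 CPM in mdx5cv mice. A UMI of Spp1 was present in 37.8% and 15% of cells and of Gpnmb in 33.2% and 16.8%, at 2000 UMIs a cell. Not every gene of the list stood so: Apoe, the lipoprotein of these cells, had 17710 and 20732 CPM. The 7 measured MHC class II genes, which present antigen, had a median of -0.08 with none past 2-fold, and Cd74 had 6040 and 6058 CPM. Inside each cluster they were on the diaphragm side, with medians of 0.24 in cluster 4 and 0.70 in cluster 9, where H2-Aa was 1.23-fold and 1.63-fold higher in diaphragm, and the mdx5cv median was 0.54.

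Endothelial-like cells differed least, with 23 of 5892 genes (0.39%) at least 2-fold higher in diaphragm and 35 (0.594%) in quadriceps. The same direction held for 22 and 28 of these in mdx5cv mice, where 0.63% and 0.238% of genes passed. Over all 5892 genes, 2349 ran in opposite directions in the 2 genotypes. Btnl9, a butyrophilin-like gene of capillary endothelium, had 119 and 384 CPM, 3.23-fold higher in diaphragm (3 to 3.48), and was 2.49-fold and 2.01-fold higher inside clusters 2 and 8. Of 14 measured venous genes, 6 were at least 2-fold higher in quadriceps, a median of -0.86 (-0.62 in mdx5cv mice). Selp, the P-selectin that slows leukocytes, had 48.4 and 7.07 CPM, and Ackr1, a chemokine-binding receptor of venules, 45.5 and 9.25 CPM. Cluster make-up differed alongside: cluster 20, led by Plvap, Selp and Ackr1, held 236 quadriceps and 22 diaphragm cells, and in cluster 2 Selp had 9 and 2 UMIs. Of 16 capillary genes, 1 was at least 2-fold higher in diaphragm and none in quadriceps, a median of 0.45. The water channel Aqp1 was an exception, with 2263 and 1369 CPM, and the fatty acid carrier Fabp4, the most abundant, had 16899 and 20577 CPM. All 13 mitochondrially encoded genes were higher in diaphragm, a median of 0.47, and 0.46 in mdx5cv mice. Inside clusters 2, 8 and 12 the median was 0.55, 0.27 and -0.03. Clusters 12 and 21, with a median depth of 0.155 and 0.168 of their libraries', are among these cells, and the part of depth in any of these values was not tested.

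Muscle stem cell-like cells numbered 301 in quadriceps and 129 in diaphragm and formed 1 cluster, so their ratios have wide intervals. Of 5500 measured genes, 36 (0.655%) were at least 2-fold higher in diaphragm and 50 (0.909%) in quadriceps. The same direction held for 28 and 47 of these in mdx5cv mice, where 0.85% and 0.869% of genes passed. Over all 5500 genes, 2410 ran in opposite directions in the 2 genotypes. Transcription factors led in both directions. Meis2, a Hox cofactor (chromosome 2, 115863064 to 116065839, minus strand), had 5 and 166 UMIs, 59.4-fold higher in diaphragm (25.0 to 185), against 2.22-fold in FAPs. Pax3, the partner of Pax7 that some adult stem cells keep, had 8.13 and 43.6 CPM, while Pax7 itself had 297 and 217 CPM. Of the Hox genes, Hoxc10 had 139 and 0 UMIs and Hoxb2 0 and 52, and Hoxa7 was near equal at 35.4 and 38.5 CPM (ratio 1.09, 0.760 to 1.55). Nppc, which encodes C-type natriuretic peptide, had 30.1 and 138 CPM here and 33.0 and 34.3 CPM in mdx5cv mice.

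In quadriceps stem cells the copper-binding oxidase Cp had 66.2 CPM, against 1.45 CPM in diaphragm, 45.5-fold higher (12.4 to 379). Maf, a leucine-zipper factor, had 82.9 and 10.9 CPM. Cdkn2a, which encodes the cell cycle inhibitors p16 and p19, had 118 and 26.2 CPM, 4.50-fold higher in quadriceps (3.18 to 6.55), and 153 and 26.9 CPM in mdx5cv mice. At 2000 UMIs a cell, 16.4% of quadriceps and 1.71% of diaphragm stem cells had a Cdkn2a UMI, against 0.152% and 0% of endothelial-like cells. Spp1 had 332 and 37.1 CPM, but few cells carried it: 37 of 301 quadriceps cells had a UMI, 1 cell had 350 of the 817 UMIs, and over all cells Spp1 had 356 and 33.5 CPM, so the part of free RNA or of single cells was not tested. The fate lists differed less. Of 21 measured quiescence genes, 3 were at least 2-fold higher in diaphragm and 2 in quadriceps, a median of -0.20; Cdkn1c, the cell cycle inhibitor p57, had 477 and 1215 CPM and the collagen chain gene Col5a3 251 and 102 CPM. Of 33 measured cell cycle genes none passed 2-fold, with a median of 0.21.

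Tenocyte-like cells rested on different clusters in the 2 muscles, 239 of 389 quadriceps cells in cluster 14 and 609 of 645 diaphragm cells in cluster 7, and their lists are not described for that reason. Of 5663 genes, 199 (3.51%) were at least 2-fold higher in diaphragm and 183 (3.23%) in quadriceps. The same direction held for 199 and 178 of these in mdx5cv mice, where 4.79% and 3.87% of genes passed. Over all 5663 genes, 1667 ran in opposite directions in the 2 genotypes. Inside cluster 7, Ptn had 1150 and 10.6 CPM and Hoxc10 97 and 0 UMIs, the directions seen in FAPs. The tenocyte markers summed to 19241 CPM in quadriceps and 7886 CPM in diaphragm tenocyte-like cells.

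Heat shock and immediate early genes had medians above 0, that is higher in diaphragm, in all 5 classes. Immediate early genes are switched on within minutes by many stimuli, and heat shock chaperones refold proteins after heat or other protein damage. In macrophage-like cells 15 of 20 measured immediate early genes and 9 of 14 heat shock genes were at least 2-fold higher in diaphragm and none in quadriceps, with medians of 1.34 and 1.35. The immediate early medians were 1.09 in FAPs, 0.58 in endothelial-like cells, 0.45 in stem cells and 0.57 in tenocyte-like cells, and the heat shock medians, in this order, 0.49, 0.52, 0.47 and 0.54. The immediate early medians of mdx5cv mice had the same direction, with 1.45 in FAPs, 1.36 in macrophage-like cells, 0.87 in endothelial-like cells and 0.36 in stem cells. Fos, a subunit of the AP-1 factor, had 111 and 395 CPM in FAPs, 498 and 1351 CPM in macrophage-like cells, 50 and 180 CPM in endothelial-like cells and 940 and 2063 CPM in muscle stem cell-like cells. Hspb1, a small chaperone, had 98.7 and 352 CPM in FAPs and 37.3 and 188 CPM in macrophage-like cells. The part of cell handling in these genes, in the cytokine genes of macrophages above or in any value beside them was not tested, and with 1 library a muscle it cannot be told apart from the muscle.

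The inducible Hsp70 pair, Hspa1a and Hspa1b, was at least 2-fold higher in diaphragm in each class described here except muscle stem cells, and the bases before their starts are shown because the same DNA element lies in each and in Hspb1. The sequences are the 250 bases upstream of the RefSeq start on the gene's strand, 5′ to 3′ (GRCm38.p6): chr17:34972157-34972406 minus for Hspa1a, chr17:34959239-34959488 minus for Hspa1b, and chr5:135887669-135887918 plus for Hspb1. Capitals mark GAANNTTC, the inverted pair of the heat shock element's repeat unit, which reads the same on both strands.
Hspa1a: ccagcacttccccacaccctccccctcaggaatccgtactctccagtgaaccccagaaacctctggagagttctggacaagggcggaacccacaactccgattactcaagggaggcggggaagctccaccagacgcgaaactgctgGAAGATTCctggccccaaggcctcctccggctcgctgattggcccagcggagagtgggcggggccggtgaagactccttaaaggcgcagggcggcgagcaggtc
Hspa1b: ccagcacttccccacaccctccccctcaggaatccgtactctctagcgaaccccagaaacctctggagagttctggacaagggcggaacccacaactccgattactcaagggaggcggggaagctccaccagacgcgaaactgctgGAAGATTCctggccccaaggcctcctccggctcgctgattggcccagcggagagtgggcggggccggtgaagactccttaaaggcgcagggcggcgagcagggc
Hspb1: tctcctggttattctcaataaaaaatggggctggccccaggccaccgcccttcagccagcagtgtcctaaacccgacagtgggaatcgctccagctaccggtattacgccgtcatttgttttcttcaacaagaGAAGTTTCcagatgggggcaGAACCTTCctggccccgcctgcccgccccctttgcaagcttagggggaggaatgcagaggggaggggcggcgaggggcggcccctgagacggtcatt
The match lies 104 bases before the start in Hspa1a and Hspa1b and 117 and 97 bases before it in Hspb1. It was found in 5 of the 12 heat shock genes of the list that had a sequence and in 2199 of 32851 upstream windows in all (6.69%); a match is a description of letters and not a site. The Hspa1a and Hspa1b windows are identical at 247 of 250 bases, and these genes are near-identical copies, so reads could be split between them and each count is uncertain. Hspa1a had 233 and 1037 CPM in FAPs, 389 and 1717 CPM in macrophage-like cells, 288 and 1229 CPM in endothelial-like cells and 1851 and 2220 CPM in muscle stem cell-like cells, so the stem cells stood apart with a high quadriceps level and a ratio of 1.20 against 4.45, 4.42 and 4.27. Hspa8, the constitutive relative, differed little, with 778 and 867 CPM in FAPs.

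**Figure D5:**
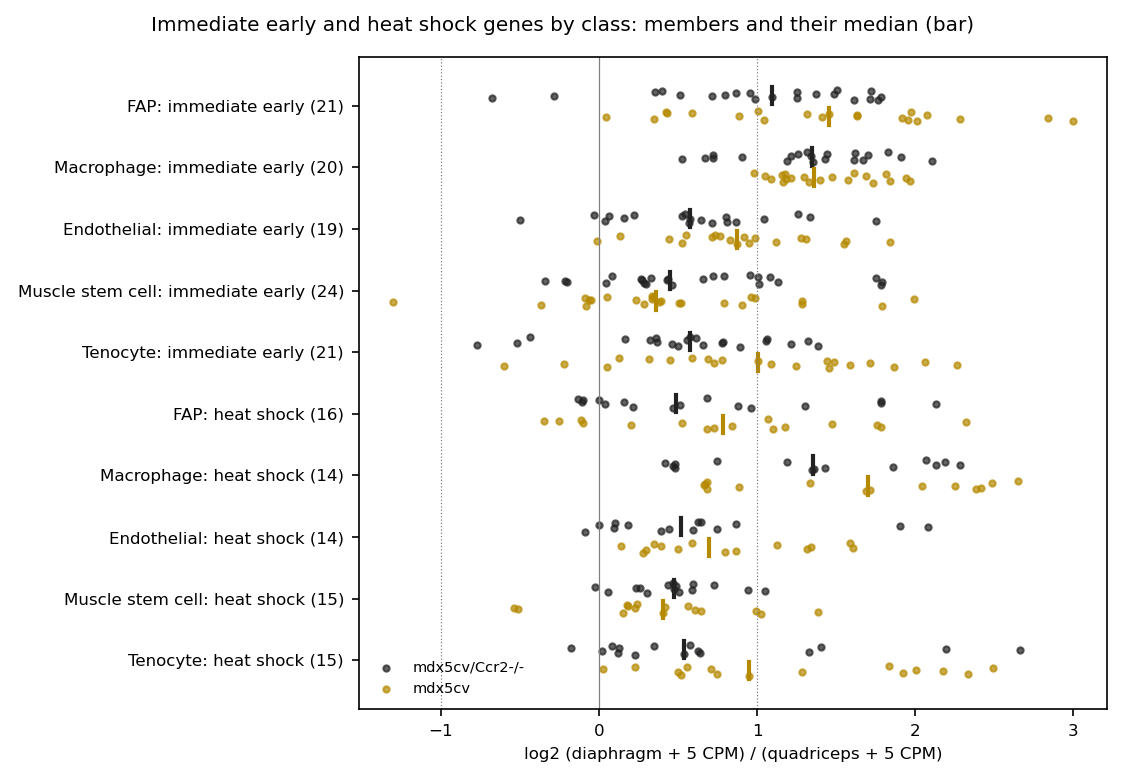
Log2 ratio of diaphragm to quadriceps (5 CPM added to each side) for immediate early genes (upper 5 rows) and heat shock genes (lower 5 rows) in 5 classes, 1 point a gene, with the median as a bar; black is mdx5cv/Ccr2-/-, gold is mdx5cv, and numbers in brackets are genes measured in mdx5cv/Ccr2-/- mice. Medians of mdx5cv/Ccr2-/- mice lie between 0.45 and 1.35, all above 0.

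Some genes followed the muscle in several classes at once. Of 5439 genes measured in at least 3 classes, 18 were at least 2-fold higher in diaphragm and 9 in quadriceps in 3 or more. Beside stress genes, the diaphragm group held Gpc3, a proteoglycan that binds growth factors, and Meis2, and the quadriceps group Hoxc10, Spp1, S100a4 and Fn1. Gm10076, chosen after its values were seen and past 2-fold in quadriceps in 4 classes (859 and 277 CPM in FAPs), was higher in diaphragm in all 5 classes in mdx5cv mice (292 and 398 CPM in FAPs). S100a4 was higher in quadriceps in FAPs, macrophage-like and endothelial-like cells, with log2 ratios of -3.78, -1.40 and -1.28, and -0.55 in muscle stem cells. Over all cells S100a4 had 710.5 and 187 CPM and Spp1 356 and 33.5 CPM. The part of free RNA in their class ratios was not tested. Dcn was higher in diaphragm in all 5 classes, macrophage-like cells included (log2 ratio 2.92), while over all cells it had 2453 and 11736 CPM and the FAP markers summed to 368 and 792 CPM in macrophage-like cells; the part of free FAP RNA was not tested.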

How the data were processed

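Raw UMI counts of genes by barcode were deposited; they came from Cell Ranger 6.1.2 on mm10, per the submitters' processing notes. The single-cell libraries were 10x 3′, per the labels' protocols. Samples were grouped by the genotype and tissue labels. Barcodes under 500 UMIs or 300 genes or over 15% mitochondrial UMIs were dropped, and Scrublet (scanpy 1.11.5) removed predicted doublets at a rate of 0.8% per 1000 deposited barcodes. Leiden clustering (resolution 1, seed 0) used the 4 libraries, with positional, stress and 237 cell cycle-following genes kept out, and clusters were named from marker sets. UMIs were summed per library and class of at least 100 cells in both libraries and scaled to CPM. A gene was measured with at least 50 UMIs over the pair and a mean of 20 CPM; the log2 ratio used 5 CPM as pseudocount. Ratios carry exact conditional binomial 95% intervals and shares exact (Clopper-Pearson) ones, which cover counting error only; no significance test was possible with 1 library a group. The genes named are the 6 with the largest log2 ratio in each direction per class (leaving out class markers, haemoglobin, ribosomal, mitochondrial, sex-linked and unnamed genes and those under 0.5 of the all-cell CPM), of each list mainly the 4 most different members and the most abundant one, genes past 2-fold in 3 or more classes, and positional factors with at least 20 UMIs (some are not reported here); a few further list members were chosen after their values were seen. Members and lists were chosen with earlier results of these data known. The calls and intervals were run on simulated counts that varied by counting error only. That run cannot check them against variation between cells, mice or libraries. Upstream windows came from RefSeq (GRCm38.p6), gene positions from GENCODE vM21 (GRCm38). Alternatives covered doublets, cell and gene filters, clustering, scaling, pseudocount and free RNA.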

Additional observations from a re-analysis of the deposited data

Results flagged for a closer look

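The muscle difference ran in opposite directions in mdx5cv/Ccr2-/- and mdx5cv mice for the following values, and in each case the difference between the genotypes was not tested. Single genes are given where the difference was at least 2-fold in both genotypes, and lists where the median was at least 0.25 from 0 in both. In endothelial-like cells the haemoglobin gene Hbb-bs had a log2 ratio of diaphragm to quadriceps of -1.27 (37.9 and 12.8 CPM in quadriceps and diaphragm), against 6.41 in mdx5cv mice (20.7 and 2177 CPM), and its value here turned to 0.50 without doublet removal; haemoglobin marks red cells, and their part in this was not tested. In the same cells Top2a, a topoisomerase of dividing cells, had -1.08 (36.5 and 14.7 CPM), against 1.34 (9.87 and 32.7 CPM). Below 2-fold in mdx5cv mice, and chosen after their values were seen, the histone genes Hist1h2ap and Hist1h2ae had -2.18 and -1.99, against 0.74 and 0.75. In macrophage-like cells Prc1, a protein of the dividing spindle, had 1.10 (13.5 and 34.7 CPM), against -1.33 (17 and 3.72 CPM); its value here turned to between -0.13 and -0.03 under 4 other settings. In the same cells the median of the 16 measured cell cycle genes was 0.31, against -0.60. In FAPs the adventitial fibroblast list had a median of 0.32, against -0.61, although Pi16 of that list was higher in diaphragm in both genotypes. The list of glucocorticoid targets and metallothioneins in FAPs had a median of 0.73, against -0.30. Inside FAP clusters 3, 5 and 11 of mdx5cv/Ccr2-/- mice the medians of this list were 0.27, 0.14 and -0.02. Those of the adventitial list were 0.46, -0.02 and -0.21.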

How the results depend on the processing

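No paired analysis was possible because each group has 1 library. Of 54 share ratios under other settings, 39 stayed within the counting interval, 10 moved and 5 reversed. The FAP ratio was 2.76 without doublet removal, 2.84 with a stricter cell filter (1000 UMIs, 500 genes, 10% mitochondrial), 2.82 and 2.79 at Leiden resolutions of 0.5 and 2, and 2.79 with the 2 libraries clustered alone. In the same order the tenocyte-like ratio was 0.591, 0.558, 0.550, 0.711 and 0.548. The endothelial-like ratio was 0.283 with the stricter cell filter, and the macrophage-like ratio 0.534 and 0.537 at resolutions of 0.5 and 2 and 0.543 with the libraries clustered alone. The ratio of pericyte-like and smooth muscle-like cells together fell below its counting interval with the stricter cell filter, where they numbered 279 and 44. The shares of all FAP and tenocyte-like cells and of all macrophage and unnamed myeloid cells kept their values in the settings run.

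Counts of genes past 2-fold moved with the gene filter. With at least 200 UMIs and 50 CPM they were, in diaphragm and quadriceps, 113 and 62 for FAPs, 13 and 12 for endothelial-like cells, 14 and 22 for muscle stem cells and 117 and 97 for tenocyte-like cells; fewer genes are tested there. With no filter other than 1 UMI they were 222 for FAPs in quadriceps, 145 and 51 for macrophage-like cells, 45 and 76 for endothelial-like cells, 80 and 144 for muscle stem cells and 397 for tenocyte-like cells in quadriceps. For macrophage-like cells the diaphragm count was 163 without doublet removal, 131 at a resolution of 2 and 134 with the libraries clustered alone, and the quadriceps count 56 and 57 at resolutions of 0.5 and 2 and 53 with the libraries clustered alone. In alternatives chosen after seeing the data, cluster 4 alone gave 54 and 17, and adding the unnamed cluster gave 52 in quadriceps. The endothelial-like diaphragm count was 36 without doublet removal. For muscle stem cells a mean over cells gave 66 and 140, and leaving mitochondrial, ribosomal and haemoglobin UMIs out of the total gave 77 in quadriceps. For tenocyte-like cells the diaphragm count was 118 with the stricter cell filter, 127 at a resolution of 2 and 116 with the libraries clustered alone, where the quadriceps count was 117. The cause was not tested for any of these beside the gene filter.

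Of 5063 log2 ratios of single genes under other settings, 4876 kept their place, 171 moved and 16 reversed; of 770 list medians, 707 stayed within 0.25 and 63 moved, none of them called reversed. Reversals touched 5 genes. Hbb-bs in endothelial-like cells had 0.50 without doublet removal. In macrophage-like cells Prc1 had -0.12 and -0.13 at resolutions of 0.5 and 2, -0.035 with the libraries clustered alone and -0.093 with the unnamed cluster added, and Rsad2 -0.050 at 0.5 and -0.078 with that cluster added. In muscle stem cells Tnnt1 had -0.052 with the stricter cell filter, -0.0226 at 0.5, -0.0233 with the libraries clustered alone and -0.0226 with a shorter list of genes kept out of clustering; Tnnt2 had -1.57 without doublet removal and with the stricter cell filter and -1.58 in the other 3. The muscle stem cell-like class held 301 and 129 cells in the main setting and 343 and 138 at a resolution of 0.5, where Ttn and Chrna1 led it. In the main setting a separate committed myoblast-like cluster held 42 and 9 cells, and no cluster had that name at 0.5. The part of those cells in these reversals was not tested. Ratios of muscle stem cell genes of few UMIs are also limited by counting.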

Other observations

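Transcripts of muscle fibre types were present among the mononuclear cells and differed by muscle. Over all cells, Myh4, the myosin of the fastest fibres, had 188 UMIs in quadriceps and 7 in diaphragm, 27.4-fold higher in quadriceps (13 to 69.1), and Pvalb, the calcium buffer of fast fibres, 1318 and 67 UMIs, 20.1-fold higher (15.7 to 26.1). Myh2, the myosin of fast oxidative fibres, had 13 and 88 UMIs, 6.63-fold higher in diaphragm (3.68 to 12.9), and Myh7, the slow myosin, 0 and 8 UMIs. Mb, the oxygen store myoglobin, was near equal at 6.05 and 5.98 CPM. Other fibre genes were not: Acta1, Tnnt3 and Mylpf were 3.43-fold, 4.68-fold and 6.13-fold higher in quadriceps, and Myh1 and Actn2 2.53-fold and 2.67-fold higher in diaphragm. The part of total fibre RNA in the fibre type ratios was not tested. Myofibre-like cells numbered 60 in quadriceps and 6 in diaphragm. With the 2 libraries clustered alone, an unnamed fibroblast cluster of 2 quadriceps and 125 diaphragm cells was led by Fabp3, Tcap, Mb and Acta1. Whether the UMIs outside myofibre-like cells were free RNA was not tested. The mdx5cv pair had 55 and 31 UMIs of Myh4 and 4 and 35 UMIs of Myh2. Pvalb, Myh1 and Actn2 also kept their direction there. Acta1, Tnnt3 and Mylpf did not, with 29.9 and 100.4, 16.05 and 39.1, and 34.0 and 71.2 CPM in mdx5cv quadriceps and diaphragm. Mb had 1.26 and 12.4 CPM in that pair.

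Small classes also differed by muscle. Migratory dendritic cell-like cells numbered 4 and 26, a ratio of shares of 6.84 (2.37 to 26.9), and 0.957 in mdx5cv mice. Gamma-delta T or innate lymphoid cell-like cells numbered 6 and 37. At a Leiden resolution of 2 the cluster of this name (6 and 39 cells) was led by Gata3, Areg and Il1rl1. Its leading genes held no gamma-delta receptor gene. The gamma-delta receptor gene Trdc instead led a cluster named T cell-like, with 37 and 90 cells. Mesothelial-like cells, which line the body cavities that the diaphragm faces, numbered 0 and 9.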
